A study of Mus musculus with 24 samples.

Results

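The step from 6 to 8.8 Gy in wild-type mice was examined in whole blood taken 24 h after X-ray exposure. The arrays titled wild type 8.8 Gy (n = 4) were set against the arrays titled wild type 6 Gy (n = 5), which is 9 of the 24 arrays of the series, all scanned on the same day. All mice were males of strain 129S/J, each array held RNA of 1 mouse, and blood was drawn by cardiac puncture into PAXgene solution, purified and depleted of globin RNA. Per the series design, 8.8 Gy is the dose that kills 50% of wild-type mice within 30 days, and 6 Gy is the dose that does so in Parp1-/- mice. The rest of the series is 5 sham-irradiated wild-type arrays (0 Gy) and 10 Parp1-/- arrays. The sham arrays are given as a level with no test because they were scanned on another day. The Parp1-/- arrays entered the main fit only through the shared estimate of the spread. Dose and scan day cannot be told apart in any difference from sham.

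Blood cells differ widely in how fast radiation removes them. Lymphocytes die by p53-driven apoptosis within hours, reticulocytes (young red cells that still hold RNA) stop being replenished when the erythroid precursors of the marrow are lost, and platelets, which have no nucleus, stay in circulation for days. Ribosomal proteins are made from abundant mRNAs that begin with a terminal oligopyrimidine tract, a run of C and T at the start of the transcript by which cells switch translation of the whole set on and off. In whole blood, fewer cells of a type and less RNA per cell cannot be told apart.

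Levels are log2 signals minus the 75th percentile of the array, so 0 is the brightness of a probe at that percentile and a difference of 1 is a doubling. Of 30199 gene names on the array, 14468 were detected (a probe well above background) on 4 or more arrays of 1 of the doses and were tested with limma. This filter asks for all 4 arrays at 8.8 Gy but for 4 of 5 at 6 Gy. A dim gene can pass it only through the dose where it is higher. At an adjusted p under 0.05, 0 genes were called higher and 0 lower at 8.8 Gy (0% each), and the smallest adjusted p was 0.0772. At an unadjusted p under 0.05 there were 2990 genes, or 20.7%, of which 1010 were higher at 8.8 Gy (6.98%) and 1980 lower (13.7%). At an adjusted p under 0.1 there were 71 higher (0.491%) and 141 lower (0.975%). The groups did not overlap for 313 genes higher at 8.8 Gy (2.16%) and 556 lower (3.84%). The median difference of all genes tested was -0.12. Counts of called genes depended on the setting, from 0 with the 9 arrays alone to 2003 higher and 59 lower after median centring and 374 higher and 1748 lower after normexp background correction. No single difference below passed at 0.05 with all arrays and the 75th percentile scaling unless another setting is named.

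No difference in array quality passed a test, which with 4 against 5 arrays cannot give an exact two-sided p below 0.0159. Probes well above background made up 48.8% ± 6.36 at 8.8 Gy and 49.4% ± 5.46 at 6 Gy (SD, n = 4 and 5; exact permutation p = 0.873, two-sided; adjusted p = 0.873 over 3 measures). The level of probes detected on none of the 9 arrays was -4.76 ± 0.912 at 8.8 Gy and -4.08 ± 0.313 at 6 Gy (SD, n = 4 and 5; exact permutation p = 0.238, adjusted p = 0.714). It was -3.73, -4.26, -5.57 and -5.48 on 8.8 Gy replicates 1 to 4, and -4.50 to -3.77 at 6 Gy. Probes brighter than 2 times the local background made up 62.55%, 86.4%, 38.6% and 34.2% in that order, and 66.2% to 92.3% at 6 Gy. Replicates 3 and 4 of 8.8 Gy shared a slide that held no 6 Gy array. Slide and these measures cannot be told apart from other differences between them and replicates 1 and 2. Of the genes with a low unadjusted p, 38.3% of those lower at 8.8 Gy and 13.7% of those higher were not above background on all 9 arrays, against 20.2% of all genes tested. The array labelled wild type 8.8 Gy replicate 2 was nearly equal to an array labelled Parp1-/- 6 Gy, with an SD of their log2 differences of 0.167 against a median of 0.901 over 276 pairs of arrays. Parp1 itself was not tested. Its level was -1.25, -1.56, -1.59 and -3.95 on the 8.8 Gy arrays and -1.27, -2.33, -1.88, -1.52 and -2.06 on the 6 Gy arrays, of which replicates 1 and 2 were not above background. The arrays labelled Parp1-/- ran from -5.01 to -2.29 and were not above background, except the near twin of 8.8 Gy replicate 2, which was above background at -1.67. The array labelled wild type 8.8 Gy replicate 4, not above background at -3.95, thus lay within the range of the knockouts, and the genotype label of that array and of the near twins is in doubt. Results that lead the text are therefore also given without replicates 2 and 4 of 8.8 Gy. Wild type 6 Gy replicate 2, not above background at -2.33, also lay just within the range of the knockouts. Parp1 does not settle its label, and it was left out only in fits with 1 array removed.

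Transcripts of liver were present and very uneven between the arrays. The mean level of 13 hepatocyte markers was -0.63, 6.09, 7.06 and 7.13 on 8.8 Gy replicates 1 to 4, and 0.28, 0.30, 0.08, 3.34 and 7.24 on 6 Gy replicates 1 to 5. These markers were thus high on 3 of the 4 arrays at 8.8 Gy and on 1 of the 5 at 6 Gy, and between these levels on 1 more. Alb, which encodes serum albumin, stood at -2.23, 7.37, 8.47 and 8.35 at 8.8 Gy, and at -0.58, -1.65, -1.46, 4.84 and 7.78 at 6 Gy. The 2 hepatocyte markers of smallest p were Cyp2e1, a cytochrome P450 (difference 2.90, SE 1.69, adjusted p = 0.33), and Apoa2, an apolipoprotein (2.34, SE 1.59, adjusted p = 0.412). All 13 markers were higher on average at 8.8 Gy, with a median difference of 2.90, and 0 reached an unadjusted p of 0.05. Markers of heart muscle (6 tested, median 0.22), skeletal muscle (5, -0.52), Kupffer cells (8, -0.69) and lung (2, -0.68) had 0 members at an unadjusted p under 0.05. The part of liver RNA in the differences below was measured only by adding the hepatocyte score to the fit as a covariate. With it 575 genes were called higher (3.97%) and 184 lower (1.27%) at 8.8 Gy, and 0 were called once 8.8 Gy replicate 1 or 6 Gy replicate 5 was left out, the arrays in which liver and dose go opposite ways.

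**Figure D1:**
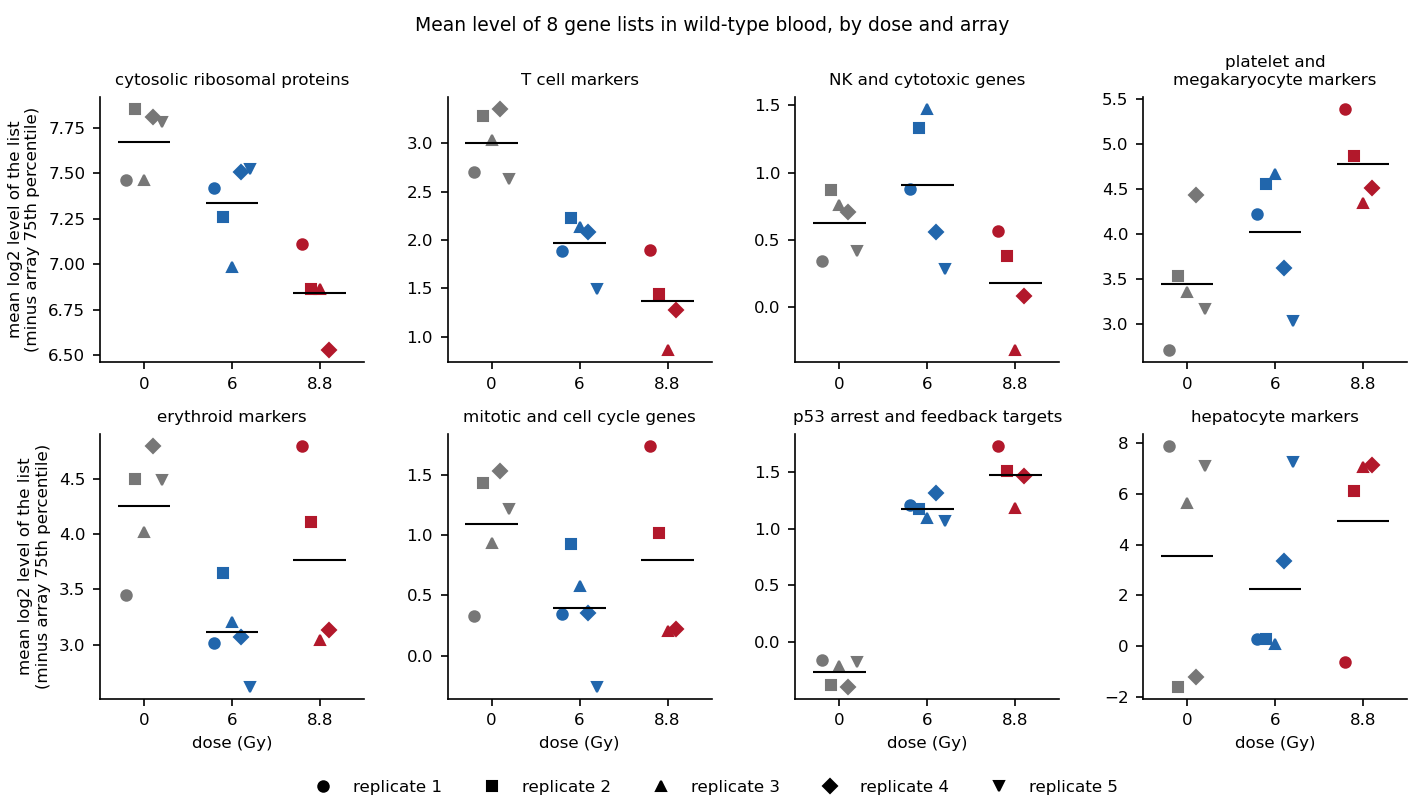
Mean log2 level of 8 gene lists on each wild-type array (y axis, relative to the 75th percentile of the array) by X-ray dose in Gy (x axis); each point is an array of 1 mouse, its shape is the replicate number and the line is the mean of the group. The 6 and 8.8 Gy arrays overlap in all 8 panels. The mean at 8.8 Gy is below that at 6 Gy for ribosomal, T cell and NK genes and above it for the others. Replicates 1 and 2 of 8.8 Gy lie above 3 and 4 in every panel except those of ribosomal and hepatocyte genes.

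Ribosomal protein genes were the list with the largest share of low p-values. Of 78 cytosolic ribosomal protein genes tested, 69 were lower on average at 8.8 Gy, 44 at an unadjusted p under 0.05 (56.4%, against 13.7% of all genes tested), and 0 were higher at that threshold. For 19 of the 78 the 2 doses did not overlap, all of them lower at 8.8 Gy, against 3.84% of all genes. The median difference was -0.53, or -0.41 relative to the median of all genes. The mean level of the list was 7.11, 6.86, 6.86 and 6.53 on the 8.8 Gy arrays and 7.42, 7.26, 6.99, 7.51 and 7.52 on the 6 Gy arrays. Replicate 3 of 6 Gy lay below the highest 8.8 Gy array, and the other 4 lay above every 8.8 Gy array. Sham arrays had 7.67 ± 0.193 (SD, n = 5).

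Members of both subunits were lower. Of 32 small subunit genes 20 were lower at an unadjusted p under 0.05 (median -0.55), as were 24 of 46 large subunit genes (median -0.50). The start of the gene is shown for the 8 members of smallest p that have an entry in the RefSeq promoter table, because the pyrimidine tract at the start of the transcript is what this family shares: 15 bases before and 15 after the RefSeq start (GRCm38.p6), 5′ to 3′ in the sense of the gene, with each CTTTC or CTTCC in capitals.
Rpl34 (chr3:130730384-130730413, minus strand): cgcCTTCCctgacgtaCTTCCtgtccggcg
Rps23 (chr13:90923107-90923136, plus strand): gccttcggctgggcggggCTTCCcgcaatg
Rps27 (chr3:90213634-90213663, minus strand): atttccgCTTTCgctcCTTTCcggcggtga
Rpl11 (chr4:136053379-136053408, minus strand): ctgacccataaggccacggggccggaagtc
Rps19 (chr7:24884577-24884606, plus strand): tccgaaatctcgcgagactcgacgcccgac
Rpl27a (chr7:109519180-109519209, plus strand): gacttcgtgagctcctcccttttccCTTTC
Rps3 (chr7:99483695-99483724, minus strand): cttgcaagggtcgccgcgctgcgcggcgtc
Rpl22 (chr4:152325711-152325740, plus strand): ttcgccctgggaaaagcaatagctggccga
Of these 8 windows 4 hold a motif on the sense strand and 4 (Rpl11, Rps19, Rps3 and Rpl22) do not. Rpl34 and Rpl22 have 2 annotated starts and Rps19 has 3, of which the first is shown. On the sense strand CTTTC lay in 25.8% of 66 windows of ribosomal protein genes and in 4.05% of 32851 windows of all genes. On either strand the shares were 27.3% and 7.57% for CTTTC, and 30.3% and 13.6% for CTTCC. A match describes these letters and is not a measured site.

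Rpl34, a large subunit protein, had 6.62, 6.48, 6.57 and 6.47 at 8.8 Gy and 7.61, 7.08, 6.99, 7.61 and 7.85 at 6 Gy (difference -0.89, SE 0.20, adjusted p = 0.0787; probe at mm9 chromosome 3, 130429830 to 130431677). The 4 high-dose mice lay within 0.2 log2 units of each other and below every 6 Gy mouse. Rps23, which lines the decoding centre of the small subunit, had 5.96, 5.68, 5.93 and 5.80 at 8.8 Gy and 6.88, 6.44, 6.38, 7.09 and 7.18 at 6 Gy (-0.95, SE 0.22, adjusted p = 0.0796), again without overlap. Rps27, a small subunit protein, had 7.66, 7.36, 7.46 and 7.13 at 8.8 Gy and 8.26, 8.26, 7.97, 8.27 and 8.62 at 6 Gy (-0.87, SE 0.22, adjusted p = 0.0851). Its probe is placed at mm9 chromosome 9, 114891509 to 114891568, while the start shown above is on chromosome 3. Which locus the Rps27 probe reads is therefore not settled. The levels of Rps19 (-0.85, SE 0.22, adjusted p = 0.0882), Rpl22 (-0.88, SE 0.25, adjusted p = 0.105), Rps3 (-1.02, SE 0.27, adjusted p = 0.0941) and Rpl27a (-0.78, SE 0.20, adjusted p = 0.0882) did not overlap between doses either. Rpl11, which also binds and restrains Mdm2, the inhibitor of p53, differed by -1.05 (SE 0.27, adjusted p = 0.0879) and its groups overlapped.

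The stalk genes of the large subunit were among the 9 with a positive difference. Rplp0 averaged 10.35 ± 0.49 at 8.8 Gy and 10.24 ± 0.34 at 6 Gy (SD, n = 4 and 5; difference 0.10, SE 0.32). Rplp1 (0.18, SE 0.32) and Rplp2 (0.17, SE 0.32) were close to it, and all 3 differences were negative without 8.8 Gy replicate 1 (Rplp0 -0.08, Rplp1 -0.09, Rplp2 -0.11). The 3 stalk genes were singled out after their values were seen. Processed pseudogenes are common in this family, and probes may pick up near copies. The Rplp1 probe is placed at mm9 chromosome X, 67906336 to 67906395, and matched no RefSeq symbol, so the locus it reads is not settled.

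**Figure D2:**
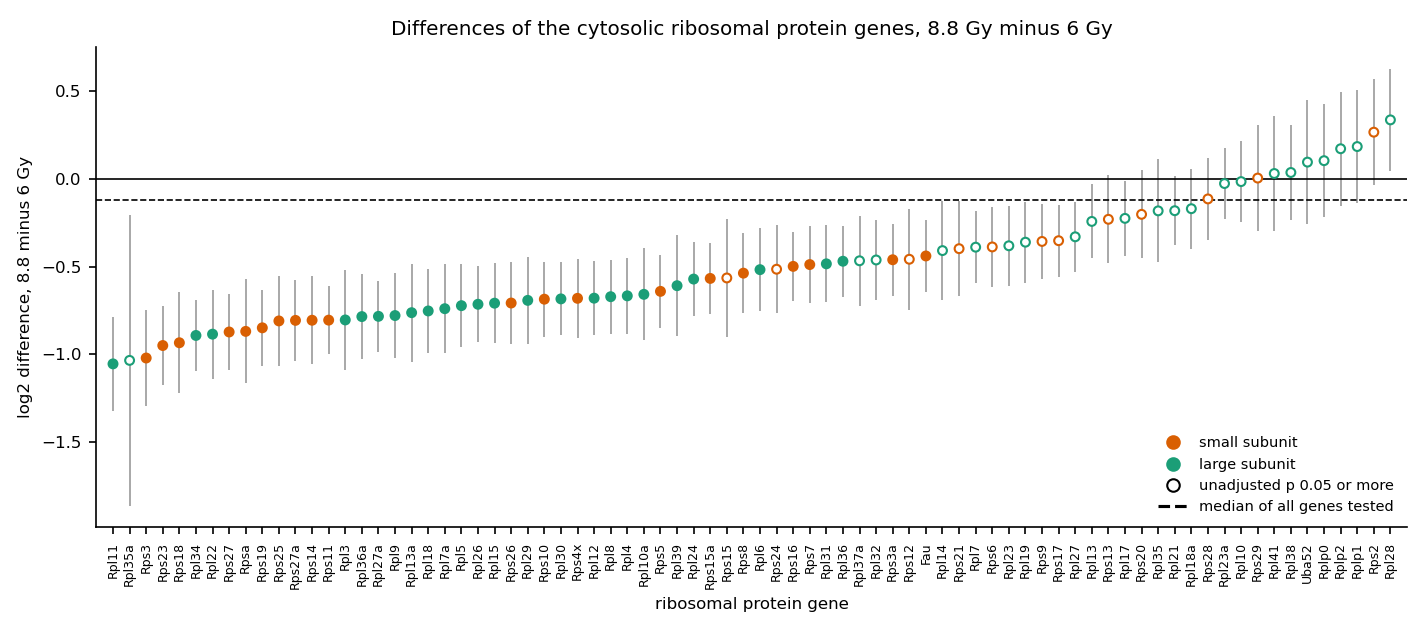
Difference of each of the 78 ribosomal protein genes (y axis, log2 level at 8.8 Gy minus 6 Gy, bars are 1 standard error from limma), ranked along the x axis; colour is the subunit, filled points have an unadjusted p under 0.05 and the dashed line is the median of all genes tested, -0.12. 69 of the 78 points lie below 0, in both subunits, and the stalk genes Rplp0, Rplp1 and Rplp2 are among the 9 above it.

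The lower ribosomal protein levels depended on how arrays were scaled. The list's median was -0.60 in the authors' deposited table (41 genes), -0.57 after quantile normalisation, -1.53 after normexp background correction and -0.03 after median centring, a scaling that moved the median of all genes to 0.38. After median centring 5 of the 78 genes were higher and 0 lower at an unadjusted p under 0.05, against 25.6% and 2.27% of all genes. Relative to the median of all genes the list was at -0.41, by construction the same as with the 75th percentile. Both scalings subtract 1 constant per array, so this value is no separate check. Without 8.8 Gy replicates 2 and 4 the median was -0.42 and 23 genes were lower at an unadjusted p under 0.05, against 5.65% of all genes. Leaving out 1 array at a time gave 35 to 51, against 7.79% to 17.2% of all genes over these fits. With the hepatocyte score as a covariate the median was -0.51 and 9 of the 78 genes were called lower, against 1.27% of all genes, Rpl34 (adjusted p = 0.0169) and Rps23 (0.0235) among them. Within the slides that hold both doses, the median was -0.49 (replicate 1 of each) and -0.13 (8.8 Gy replicate 2 and 6 Gy replicate 3). The median of all genes on these slides was -0.02 and -0.10, so on the second slide the list was close to all genes. With a block for replicate number the list's share came close to that of all genes lower, 15.2%, as given at the end.

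Translation factors divided in direction. Of 26 tested, 5 were higher and 3 lower at 8.8 Gy at an unadjusted p under 0.05 (19.2% and 12%, against 6.98% and 13.7% of all genes), with a median of -0.08. Those lower were Eif3h, a subunit of initiation factor 3 (-0.77, SE 0.20, adjusted p = 0.09), Gnb2l1 (now Rack1), which sits on the small subunit (-0.77, SE 0.25, adjusted p = 0.128), and Eef1g, an elongation factor (-0.75, SE 0.26, adjusted p = 0.137). The Eef1g probe is placed at mm9 chromosome 15, 15873701 to 15873760, and matched no RefSeq symbol, so the locus it reads is not settled. The elongation factor Eef1a1 differed by -0.47 (SE 0.24, adjusted p = 0.269). Among those higher was Eif4g2, an initiation factor used when cap-dependent initiation is held back, with 2.49, 2.27, 1.81 and 1.78 at 8.8 Gy and 1.35, 1.39, 1.16, 1.29 and 0.47 at 6 Gy (0.95, SE 0.25, adjusted p = 0.0884). Pabpc1, the cytoplasmic poly(A)-binding protein, had 10.02, 9.38, 8.49 and 8.55 at 8.8 Gy and 7.94, 8.47, 7.94, 8.05 and 7.28 at 6 Gy (1.17, SE 0.37, adjusted p = 0.117). Its mean at 8.8 Gy (9.11) lay between the 6 Gy mean (7.94) and the sham mean (9.93). Eef2, which moves the ribosome along, differed by 0.40 (SE 0.17, adjusted p = 0.196), and its normexp value was of the other sign (-0.58). With the hepatocyte covariate Eif4g2 and Pabpc1 were called higher (adjusted p = 0.0184 and 0.0153) and Eif3h lower (0.0393). After normexp 1 of the 26 translation factors was higher and 17 lower at an unadjusted p under 0.05 (median -0.75), against 8.84% and 22.8% of all genes in that setting. After median centring 7 were higher and 0 lower (median 0.42), against 25.6% and 2.27% of all genes.

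**Figure D3:**
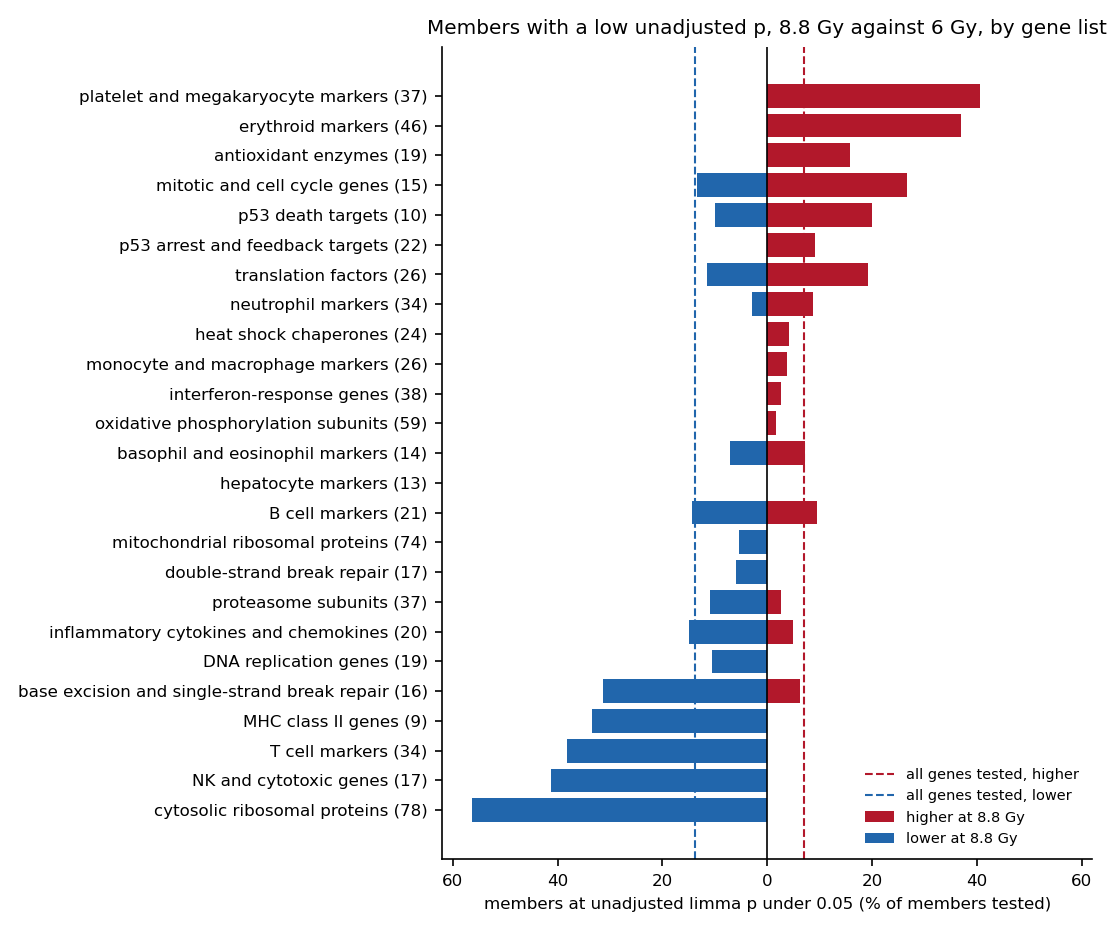
Share of the tested members of each gene list with an unadjusted limma p under 0.05 (x axis, % of members; red to the right for higher at 8.8 Gy, blue to the left for lower), with the number tested in brackets; dashed lines are the shares of all genes tested, 6.98% higher and 13.7% lower. Ribosomal proteins, NK and T cell genes reach furthest to the left, and platelet and erythroid markers furthest to the right.

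Lymphocyte genes were lower at 8.8 Gy than at 6 Gy on average. Of 34 T cell markers 30 had a negative difference, 13 were lower at an unadjusted p under 0.05 (38.2%, against 13.7% of all genes) and 0 higher, with a median of -0.50. For 6 the doses did not overlap, against 3.84% of all genes. The mean level of the list was 1.90, 1.44, 0.86 and 1.27 at 8.8 Gy, and 1.88, 2.23, 2.14, 2.09 and 1.49 at 6 Gy, with 3.0 ± 0.329 in sham (SD, n = 5). In 28 of the 34 the 8.8 Gy mean was farther from sham than the 6 Gy mean, against 36.7% of all genes.

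The T cell markers of small p included surface molecules and receptor chains. Thy1, a surface glycoprotein of T cells, had 1.93, 1.36, 0.42 and 1.51 at 8.8 Gy and 2.67, 3.05, 2.71, 2.71 and 2.53 at 6 Gy (difference -1.43, SE 0.33, adjusted p = 0.0795; probe at mm9 chromosome 9, 43856591 to 43856650). Every 8.8 Gy mouse lay below every 6 Gy mouse, and both lay below the sham mean of 5.08. The CD3 chains of the receptor were Cd3g (-1.17, SE 0.31, adjusted p = 0.0936), Cd3d (-1.01, SE 0.30, adjusted p = 0.113) and Cd3e (-0.77, SE 0.31, adjusted p = 0.183), of which the first 2 did not overlap between doses. Cd3d stood at 2.96, 2.48, 1.97 and 2.07 at 8.8 Gy, and at 3.14, 3.69, 3.42, 3.44 and 3.18 at 6 Gy. The adhesion receptor Cd2 differed by -1.06 (SE 0.30, adjusted p = 0.105), also without overlap.

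Dapl1, a gene of naive T cells, had the smallest p of all genes tested. It stood at -2.47, -3.62, -2.57 and -2.48 at 8.8 Gy, and at -1.08, -0.18, -0.05, -0.64 and -0.98 at 6 Gy (-2.19, SE 0.42, adjusted p = 0.0772). It was above background on 2 of 4 and 5 of 5 of these arrays, so it passed the detection filter only through 6 Gy. Its sham mean was 2.79. The kinase Lck, which starts receptor signalling, differed by -0.77 (SE 0.38, adjusted p = 0.254). The co-receptors went different ways: Cd8a differed by -1.31 (SE 0.43, adjusted p = 0.13), above background on 1 of 4 arrays at 8.8 Gy and 4 of 5 at 6 Gy, and Cd4 by 0.41 (SE 0.29, adjusted p = 0.443). Their normexp values were of the other sign (0.38 for Cd8a, -0.56 for Cd4).

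NK and cytotoxic genes had a median difference of -0.73. Of 17 tested, 16 were negative and 7 lower at an unadjusted p under 0.05 (41.2%, against 13.7% of all genes), with 0 higher. Il2rb, a chain of the receptors for interleukins 2 and 15, had -0.04, -0.31, -0.72 and 0.02 at 8.8 Gy and 0.92, 0.98, 0.95, 0.88 and 0.68 at 6 Gy (-1.14, SE 0.33, adjusted p = 0.106), without overlap. Klrd1, the CD94 chain of NK receptors, differed by -0.92 (SE 0.30, adjusted p = 0.128), and the granule protease Gzma by -0.81 (SE 0.33, adjusted p = 0.175). Gzmk, another granzyme, averaged -0.49 ± 0.54 at 8.8 Gy (SD, n = 4) and 2.15 ± 1.14 on the 4 arrays at 6 Gy with a value, replicate 1 being dropped as an outlier spot (SD, n = 4; -2.64, SE 1.13, adjusted p = 0.206). Unlike the T cell list, the NK list was not lower at 6 Gy than in sham: its mean level was 0.62 ± 0.228 in sham, 0.90 ± 0.502 at 6 Gy (SD, n = 5 each) and 0.18 ± 0.387 at 8.8 Gy (SD, n = 4), and this difference between the lists was not tested.

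The mean level of the B cell list was -0.59, -0.48, -0.85 and -0.67 at 8.8 Gy and 0.13, -0.46, -0.30, -0.17 and -0.13 at 6 Gy, so no 8.8 Gy array reached the lowest 6 Gy array. B cell genes and class II genes, which B cells and monocytes express, were also mostly negative. Of 21 B cell markers 17 had a negative difference (median -0.60), 3 were lower and 2 higher at an unadjusted p under 0.05, or 14.3% and 9.52%, against 13.7% and 6.98% of all genes. The 2 of smallest p were the transcription factor Pou2f2 (-1.08, SE 0.38, adjusted p = 0.138) and its coactivator Pou2af1 (-1.09, SE 0.40, adjusted p = 0.147), both above background on 3 of 4 arrays at 8.8 Gy. The surface marker Ms4a1, which encodes CD20 (-0.99, SE 0.74, adjusted p = 0.458), overlapped between doses. Of 9 class II genes all 9 were negative and 3 lower at that threshold (33.3%). The peptide loading and regulating chains were H2-DMa, with -0.62 ± 0.22 at 8.8 Gy (SD, n = 4) and 0.60 ± 0.35 at 6 Gy on the 4 arrays with a value, replicate 2 being dropped (SD, n = 4; -1.23, SE 0.41, adjusted p = 0.133), and H2-Ob (-0.65, SE 0.26, adjusted p = 0.175), neither with overlap. The presenting chain H2-Aa (-0.41, SE 0.48) and the invariant chain Cd74 (-0.47, SE 0.56) overlapped.

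The lymphocyte medians moved with the liver score and with slide. With the hepatocyte covariate the T cell median was -0.27, with 5 of 34 called lower (1.27% of all genes): Dapl1 (adjusted p = 0.0115), Thy1 (0.0153), Cd3g (0.0361), Cd2 (0.0463) and Cd3d (0.0489). The NK median was then -0.48, with 0 called. With slide as a fixed block, 4 T cell markers were lower at an unadjusted p under 0.05 (median -0.23, against 6.94% of all genes). Within the slide holding replicate 1 of each dose the T cell median was 0.01 and the NK median -0.25 (all genes -0.02). Within the slide holding 8.8 Gy replicate 2 and 6 Gy replicate 3 they were -0.65 and -0.97 (all genes -0.10). After median centring the T cell median was 0.00, or -0.38 relative to all genes, and the NK median -0.23. The B cell median turned to 0.06 after normexp and the NK median was then -0.09. Without 8.8 Gy replicate 3, the array lowest in both lists, 8 of 34 T cell and 2 of 17 NK genes were lower at an unadjusted p under 0.05, against 9.14% of all genes. The NK count was also 3 without 8.8 Gy replicate 4 (7.79% of all genes) or 6 Gy replicate 2 (11.4%), and 2 without 6 Gy replicate 3 (10.9%). Without either replicate 3 the NK share was thus near that of all genes. Without 8.8 Gy replicates 2 and 4 the medians were -0.56 for T cell, -0.73 for NK and -0.66 for B cell genes.

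Platelet genes were higher at 8.8 Gy on average. Of 37 markers of platelets and megakaryocytes, 34 had a positive difference, 15 were higher at an unadjusted p under 0.05 (40.5%, against 6.98% of all genes) and 0 lower, with a median of 0.73. The mean level of the list was 5.38, 4.86, 4.34 and 4.51 at 8.8 Gy and 4.22, 4.55, 4.67, 3.62 and 3.03 at 6 Gy, so the groups overlapped, as they did for every one of the 37 genes. In 32 of the 37 the 8.8 Gy mean was farther from sham than the 6 Gy mean, against 36.7% of all genes, and the list's sham level was 3.44 ± 0.634 (SD, n = 5).

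The adhesion receptors that hold platelets to fibrinogen and to von Willebrand factor had differences of similar size. Itga2b, the alpha chain of the fibrinogen receptor, had 5.37, 4.49, 3.77 and 3.86 at 8.8 Gy and 2.15, 2.58, 4.04, 3.37 and 1.09 at 6 Gy (1.73, SE 0.53, adjusted p = 0.113; probe at mm9 chromosome 11, 102319453 to 102319661). Only 6 Gy replicate 3 reached into the 8.8 Gy range. Its partner Itgb3 had 7.16, 6.52, 5.50 and 6.05 at 8.8 Gy and 4.91, 5.89, 5.67, 3.82 and 3.59 at 6 Gy (1.53, SE 0.50, adjusted p = 0.127). Gp1ba (1.35, SE 0.46, adjusted p = 0.136) and Gp5 (1.23, SE 0.41, adjusted p = 0.128) belong to the von Willebrand factor receptor. P2ry12, the ADP receptor targeted by antiplatelet drugs, differed by 1.31 (SE 0.43, adjusted p = 0.127), and Tubb1, the tubulin of the platelet's marginal band, by 1.24 (SE 0.36, adjusted p = 0.106).

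Pf4, the chemokine stored in platelet granules, had a difference near 0. It had 10.45, 9.84, 9.11 and 7.96 at 8.8 Gy and 9.67, 9.98, 9.96, 8.83 and 8.43 at 6 Gy (-0.03, SE 0.42). Its sign changed with the setting. The platelet list was called in part with the hepatocyte covariate, where 16 of 37 genes were higher (3.97% of all genes) and the median was 1.04, Itga2b and Gp5 with an adjusted p of 0.0115 each, but 0 were called in that fit without 8.8 Gy replicate 1 or 6 Gy replicate 5. The median was 1.23 after median centring (0.85 relative to all genes), 0.85 in the authors' deposited table and -0.16 after normexp, where 0 were higher and 3 lower at an unadjusted p under 0.05. Within slides it was 1.16 and 0.22. Without 8.8 Gy replicates 2 and 4 it was 0.87 with 11 higher, against 4.26% of all genes. Leaving out 1 array at a time gave 9 (without 8.8 Gy replicate 1 or 6 Gy replicate 5) to 21, against 3.66% to 8.63% of all genes over these fits.

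**Figure D4:**
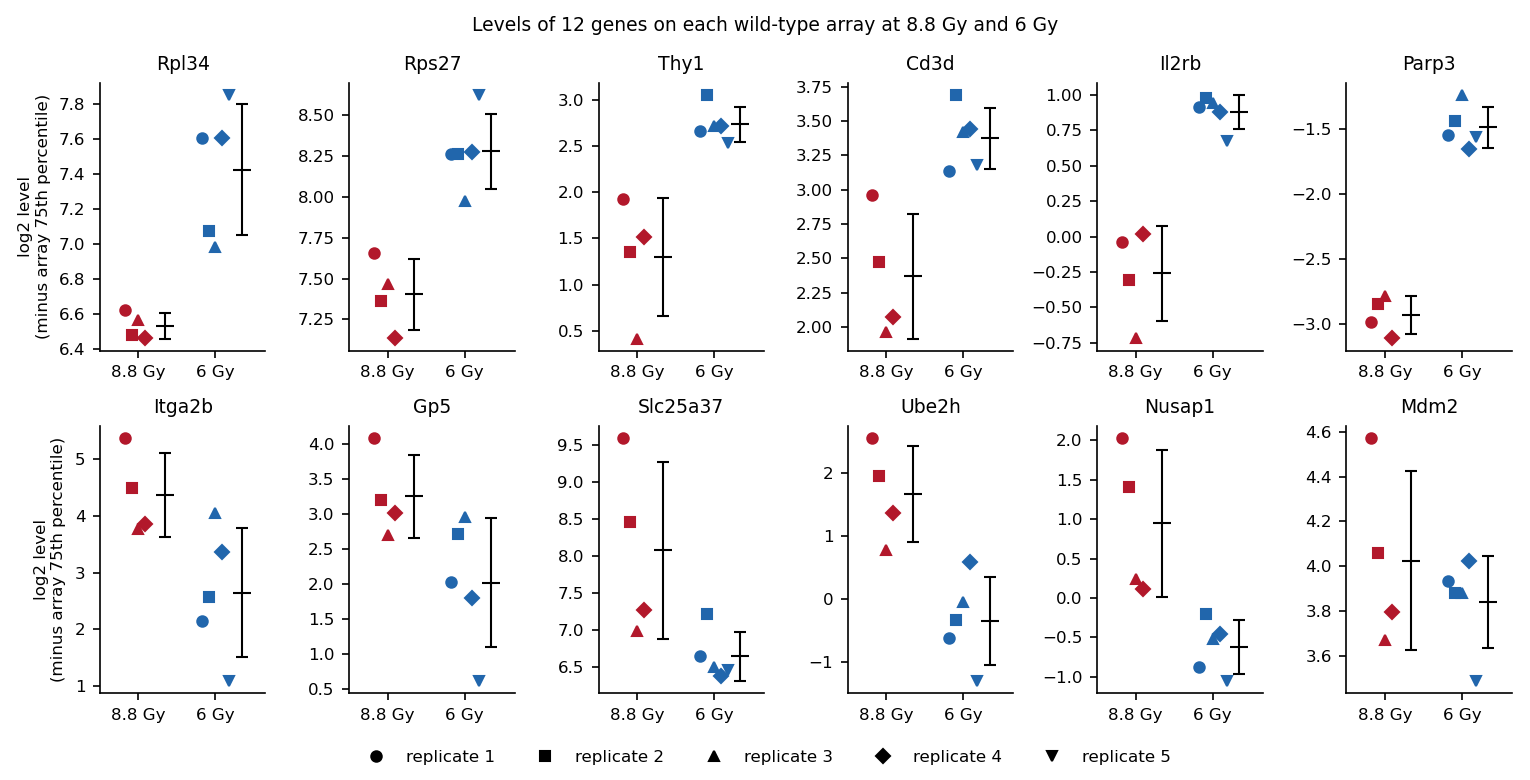
Log2 level of 12 genes (y axis, relative to the 75th percentile of the array) on the 4 arrays at 8.8 Gy (left in each panel) and the 5 at 6 Gy (right); the shape is the replicate number and the black mark with bars is the mean ± SD. Rpl34, Rps27, Thy1, Cd3d, Il2rb and Parp3 lie lower at 8.8 Gy with no overlap, Ube2h and Nusap1 higher with no overlap, and Itga2b, Gp5, Slc25a37 and Mdm2 overlap.

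Red cell genes were nearer to their sham level at 8.8 Gy than at 6 Gy. Of 46 erythroid markers 42 had a positive difference, 17 were higher at an unadjusted p under 0.05 (37.0%, against 6.98% of all genes) and 0 lower, with a median of 0.77. In 36 the 6 Gy mean was below sham, and in 29 the 8.8 Gy mean lay between the sham and the 6 Gy mean (63.0%, against 44.0% of all genes). The list's mean level was 4.25 ± 0.528 in sham (SD, n = 5), 3.11 ± 0.370 at 6 Gy (SD, n = 5) and 3.77 ± 0.839 at 8.8 Gy (SD, n = 4). The 8.8 Gy arrays were unlike each other, with 4.80 and 4.11 in replicates 1 and 2 and 3.04 and 3.13 in replicates 3 and 4, the last 2 within the 6 Gy range of 2.62 to 3.65. Replicates 3 and 4 also shared a slide and stood apart in array quality.

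The mitochondrial iron importer Slc25a37 had 9.60, 8.45, 6.99 and 7.26 at 8.8 Gy and 6.64, 7.21, 6.50, 6.38 and 6.46 at 6 Gy (1.44, SE 0.45, adjusted p = 0.118), with 9.51 in sham. Replicate 1 of 8.8 Gy reached the sham mean, and replicate 3 alone lay within the 6 Gy range. Slc25a39, another mitochondrial carrier (1.24, SE 0.37, adjusted p = 0.109), followed the same order of means. The erythropoietin receptor Epor differed by 0.97 (SE 0.37, adjusted p = 0.16), but its sham mean of 0.38 lay below both doses (2.57 at 8.8 Gy, 1.60 at 6 Gy).

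Not every red cell gene differed beyond its spread. Alas2, the first enzyme of heme synthesis in red cells, averaged 11.61 ± 0.51 at 8.8 Gy and 11.47 ± 0.34 at 6 Gy (SD, n = 4 and 5; 0.15, SE 0.34). Alas2 changed sign without 8.8 Gy replicate 1 (-0.10). Without that array 6 of the 46 erythroid genes were higher at an unadjusted p under 0.05, against 3.66% of all genes, with a median of 0.43, and leaving out 8.8 Gy replicate 3 gave 24. The count was 11 without 8.8 Gy replicate 2, 10 without 6 Gy replicate 5 and 11 without 8.8 Gy replicates 2 and 4 (median 0.89). With the hepatocyte covariate 8 of 46 were called higher (3.97% of all genes; Slc25a39 adjusted p = 0.0235). The median was 1.28 after median centring, 0.93 in the authors' deposited table and 0.04 after normexp.

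Several of the genes of smallest p, shown after their values were seen, had this same order of means. Ube2h, an E2 ubiquitin-conjugating enzyme of maturing red cells, had 2.56, 1.96, 0.78 and 1.37 at 8.8 Gy and -0.61, -0.33, -0.05, 0.59 and -1.30 at 6 Gy (2.01, SE 0.43, adjusted p = 0.0772), with 2.89 in sham. Yod1, a deubiquitinase, was above background on all 4 arrays at 8.8 Gy and on 0 of 5 at 6 Gy. Its measured means were -0.72 at 8.8 Gy and -2.75 at 6 Gy (limma adjusted p = 0.0772). With 6 Gy levels raised to the dimmest signal above background on each array, the difference was 3.08-fold. That value is not a lower limit, because a spot not above background can be brighter. Parp1, for example, was not above background at -1.27 on 6 Gy replicate 1. Paqr9 (1.80, SE 0.39) and the elongation factor Ell2 (2.0, SE 0.43) had sham means of 4.51 and 2.42, near or above their 8.8 Gy means of 3.97 and 2.17. Casd1, a sialic acid acetyltransferase (1.66, SE 0.33), Bcar3, an adaptor protein (1.34, SE 0.27), the membrane protease Adam9 (1.16, SE 0.24) and R3hdm2 (0.89, SE 0.19) were also higher without overlap, and all had an adjusted p of 0.0772.

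Genes lower at 8.8 Gy among the smallest p-values included the following. Parp3, a DNA-strand-break sensor of the same enzyme family as Parp1, had -2.99, -2.85, -2.78 and -3.11 at 8.8 Gy and -1.55, -1.43, -1.24, -1.65 and -1.56 at 6 Gy (-1.45, SE 0.29, adjusted p = 0.0772; probe at mm9 chromosome 9, 106372743 to 106372802). The gap between the doses was wider than the spread within either, and Parp3 was above background on 2 of 4 arrays at 8.8 Gy and 5 of 5 at 6 Gy. Parp3 thus passed the detection filter only through 6 Gy, and its gap and p are not independent of that filter. Its difference was 0.31 after normexp. Myl4, a myosin light chain (-1.39, SE 0.28), and Loxl2, a lysyl oxidase (-1.07, SE 0.23), did not overlap either and were above background on all 9 arrays. Skint10 (-1.94, SE 0.40) was above background on 1 of 4 arrays at 8.8 Gy, and the zinc finger gene Zfp563 (-1.70, SE 0.36) on 3 of 4. These 5 genes had an adjusted p of 0.0772.

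Mitotic genes also divided the 8.8 Gy arrays, again with replicates 3 and 4, which shared a slide, below replicates 1 and 2. Of 15 tested, 13 were positive (median 0.44), 4 higher and 2 lower at an unadjusted p under 0.05 (26.7% and 13.3%, against 6.98% and 13.7% of all genes). The list's mean was 1.74, 1.02, 0.20 and 0.22 at 8.8 Gy and 0.35, 0.93, 0.58, 0.36 and -0.26 at 6 Gy. Nusap1, a spindle protein, had 2.03, 1.41, 0.24 and 0.11 at 8.8 Gy and -0.87, -0.20, -0.52, -0.46 and -1.06 at 6 Gy (1.57, SE 0.44, adjusted p = 0.102), without overlap. The proliferation marker Mki67 had 4.60, 3.68, 1.62 and 2.31 at 8.8 Gy and 1.47, 1.97, 1.61, 1.46 and 0.65 at 6 Gy (1.62, SE 0.53, adjusted p = 0.126). Without 8.8 Gy replicate 1 the list median was 0.22 with 2 of 15 higher, as many as without replicate 2, against 3.66% and 5.29% of all genes. Without replicate 4, 7 were higher, against 6.77% of all genes. Without replicates 2 and 4 the median was 0.91 with 6 higher, against 4.26% of all genes. Ube2c, which feeds the anaphase-promoting complex, differed by 1.17 (SE 0.45, adjusted p = 0.158). The spindle assembly factor Tpx2, dim on 2 of the 8.8 Gy arrays, differed by -1.73 (SE 0.60, adjusted p = 0.137). Of 19 DNA replication genes 0 were higher and 2 lower (10.5%, against 13.7% of all genes): Rfc5, a clamp loader subunit (-0.64, SE 0.21, adjusted p = 0.126), and Tyms, thymidylate synthase (-1.60, SE 0.56, adjusted p = 0.138).

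Targets of p53 had small differences between the doses beside their distance from sham. Of 22 arrest and feedback targets 18 had a positive difference, and 2 were higher and 0 lower at an unadjusted p under 0.05 (9.09%, against 6.98% of all genes). The median was 0.27, or 0.39 relative to all genes, and -0.27 after normexp. In 17 of the 22 the 8.8 Gy mean was farther from sham than the 6 Gy mean, against 36.7% of all genes. The list's mean level was 1.73, 1.51, 1.18 and 1.46 at 8.8 Gy, and 1.07 to 1.32 at 6 Gy, with -0.26 ± 0.116 in sham (SD, n = 5). Cdkn1a, the p21 cell cycle inhibitor, averaged -1.90 in sham, 2.26 ± 0.35 at 6 Gy and 1.98 ± 0.26 at 8.8 Gy (SD, n = 5 and 4; difference -0.28, SE 0.32). Mdm2 averaged 2.65 in sham, 3.84 ± 0.21 at 6 Gy and 4.03 ± 0.40 at 8.8 Gy (0.18, SE 0.23). Cyclin G1, Ccng1 (0.29, SE 0.26), and Phlda3, an Akt inhibitor (0.27, SE 0.30), likewise differed by about 1 standard error, with sham means of 0.20 and 1.53 and 8.8 Gy means of 2.56 and 4.58. The 2 of smallest p were Ei24 (1.18, SE 0.54, adjusted p = 0.223) and Trp53inp1, which promotes p53 activity (0.72, SE 0.33, adjusted p = 0.224).

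Of 10 p53 death targets 2 were higher and 1 lower at an unadjusted p under 0.05 (20% and 10%, against 6.98% and 13.7% of all genes). Apaf1, the core of the apoptosome, had the smallest p (1.12, SE 0.32, adjusted p = 0.105; above background on 4 of 4 arrays at 8.8 Gy and 1 of 5 at 6 Gy). Bax, which opens the mitochondrial outer membrane, had 4.1, 3.49, 3.65 and 3.38 at 8.8 Gy and 4.17, 4.15, 3.95, 4.29 and 4.51 at 6 Gy (-0.55, SE 0.23, adjusted p = 0.184), with 2.28 in sham. A single 8.8 Gy mouse reached into the 6 Gy range. Of 17 double-strand break repair genes 1 was lower (5.88%, against 13.7%), the checkpoint kinase Chek1 (-1.20, SE 0.49, adjusted p = 0.183). Of 16 base excision and single-strand break repair genes 5 were lower and 1 higher (31.2% and 6.25%, against 13.7% and 6.98% of all genes), Parp3 and the glycosylase Nthl1 (-0.86, SE 0.28, adjusted p = 0.126) with the smallest p, and both were called lower with the hepatocyte covariate (adjusted p = 0.0128 and 0.0417). Parp3 and Nthl1 passed the detection filter only through 6 Gy. After normexp Chek1 was at 0.29 and Nthl1 at 0.27.

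Interferon-response genes had a median difference of 0.02 over 38 genes, with 1 higher and 0 lower (2.63% and 0%, against 6.98% and 13.7% of all genes). Oasl2, an antiviral gene, was at -4.18 in sham and varied widely within the doses, with 0.71, 0.37, 1.97 and 1.17 at 8.8 Gy and 2.52, -1.02, -1.27, 1.82 and 2.32 at 6 Gy (0.18, SE 0.64). After normexp 0 interferon-response genes were higher and 12 lower at an unadjusted p under 0.05 (median -0.43), against 22.8% lower of all genes in that setting. The 2 of smallest p were Ifit2 (0.95, SE 0.32, adjusted p = 0.133) and Ifi27l2a (-1.06, SE 0.53, adjusted p = 0.252).

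Of 34 neutrophil markers 3 were higher and 1 lower at an unadjusted p under 0.05 (8.82% and 2.94%, against 6.98% and 13.7% of all genes), with a median of -0.15. The glucose transporter Slc2a3, which platelets also use (1.19, SE 0.36, adjusted p = 0.113), and the granule protease Mmp9 (1.04, SE 0.41, adjusted p = 0.166) had the smallest p, and Ly6g, the usual surface marker of mouse neutrophils, differed by -0.33 (SE 0.28). Of 26 monocyte and macrophage markers 1 was higher (3.85%; median -0.33), F13a1, coagulation factor XIII, which platelets carry as well (0.86, SE 0.41, adjusted p = 0.235). The fractalkine receptor Cx3cr1 differed by -0.84 (SE 0.48, adjusted p = 0.316). Of 14 basophil and eosinophil markers 12 were negative, with a median of -0.69, or -0.57 relative to all genes; 1 was higher, the transcription factor Gata2 (1.08, SE 0.40, adjusted p = 0.147), and 1 lower, the eosinophil ribonuclease Ear1 (-1.15, SE 0.53, adjusted p = 0.22). Of 20 inflammatory cytokines and chemokines 1 was higher and 3 lower (5.00% and 15.0%), with Relb, an NF-kappaB subunit (-0.86, SE 0.34, adjusted p = 0.173), and Tgfb1, a cytokine that platelets store (0.77, SE 0.32, adjusted p = 0.184), of smallest p.

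Of 19 antioxidant genes 15 were positive, and 3 were higher and 0 lower at an unadjusted p under 0.05 (15.8% and 0%, against 6.98% and 13.7% of all genes). The median was 0.44, or 0.56 relative to all genes, and -0.38 after normexp. The 3 were Prdx6, a peroxiredoxin (0.82, SE 0.30, adjusted p = 0.144), Gclm, of glutathione synthesis (1.05, SE 0.41, adjusted p = 0.164), and the partner subunit of Gclm. Of 24 heat shock chaperones 1 was higher, the co-chaperone Bag3 (0.91, SE 0.25, adjusted p = 0.0993; no overlap). Of 59 oxidative phosphorylation subunits 1 was higher (1.69%), Sdha of complex II (0.68, SE 0.26, adjusted p = 0.157), with a median of 0.03. Mitochondrial ribosomal proteins, a list made by name pattern after values were seen, had 0 higher and 4 lower of 74 (5.41%; median -0.19), Mrpl33 with the smallest p (-0.63, SE 0.23, adjusted p = 0.149). The cytosolic ribosome's share of 56.4% was thus not seen in its mitochondrial counterpart, a difference that was not tested. Of 37 proteasome subunits, chosen in the same way, 1 was higher and 4 lower (2.70% and 10.8%; median -0.19), the immunoproteasome subunit Psmb8 with the smallest p (-0.91, SE 0.31, adjusted p = 0.136).

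**Figure D5:**
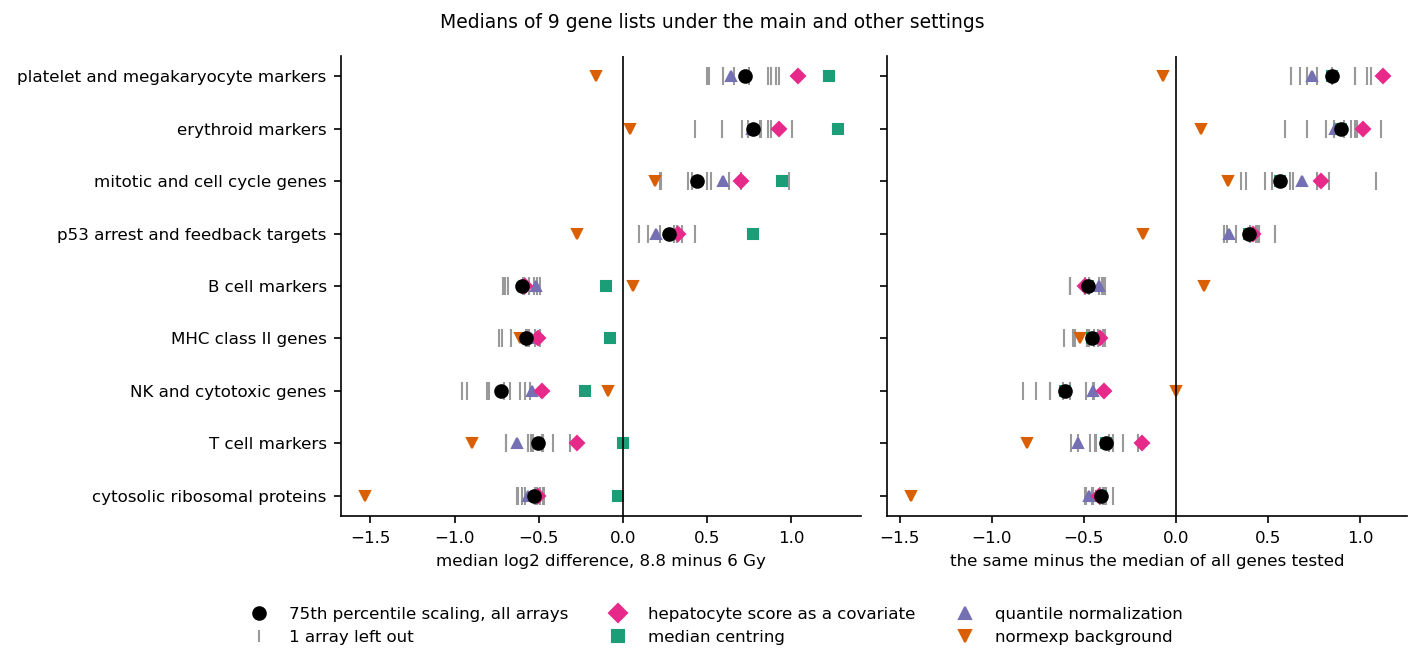
Median difference, 8.8 Gy minus 6 Gy, of 9 gene lists (rows) on the log2 scale (left) and after subtracting the median of all genes tested (right); black points use all arrays and the 75th percentile scaling, grey ticks leave out 1 array and the other symbols are other settings. Relative to all genes, ribosomal and T cell medians stay below 0 under every setting drawn, while platelet, B cell and p53 medians change sign under normexp. On the right, median centring equals the 75th percentile scaling by construction.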

How the data were processed

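Each deposited scanner file gives the linear intensity of every spot on 1 array, background-subtracted and detrended by Agilent Feature Extraction 11.5.1, per the file headers. The deposited series table holds the authors' log2 values for 10214 probes with column medians of 7.65 to 8.04 on the 9 arrays; set against log2 of the scanner signal it differed by a constant per array (SD of the difference 0.0035 to 0.029), so its direction and scale are known, while the origin of the constants and the choice of probes are not given in the sources used here. Control spots and outlier-marked spots (154 to 358 per array) were left out. The processed signal was taken to log2, each array's 75th percentile was subtracted, spots of 1 probe were averaged, the brightest probe stood for a gene name, and a gene was tested if that probe was well above background on 4 or more arrays of either dose. limma 3.58.1 in R 4.3.3 fitted 5 group means over 24 arrays; adjusted p-values are Benjamini-Hochberg over 14468 genes, called under 0.05, and SE is limma's moderated standard error. 52 genes lacked a value on 1 or more of the 9 arrays. The scripts were tested on simulated data. Replicates are separate mice; array number limits the precision.

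The gene names of the array files are old in places, and 27502 of 39429 probes matched RefSeq symbols; coordinates are the array files' mm9. Members, lists and tests were chosen with earlier results of these data known. By rule the text names the largest called changes (there were none), from each list called members or, with none, the 2 of smallest p, and a few fixed genes (Parp1, Cdkn1a, Mdm2, Ccng1, Phlda3, Bax, Ms4a1, Cd3e, Lck, Pf4, Oasl2, Ly6g, Alb); some genes the rule names are not reported here. For double-strand break repair, heat shock, oxidative phosphorylation, mitochondrial ribosome and proteasome lists only the first is named, and other tissues than liver are given as counts. Genes of smallest p over all genes and further list members were added after their values were seen, as were the lists of mitochondrial ribosomal proteins and proteasome subunits. Alternatives were other backgrounds, scalings, filters, probes, slide and replicate blocks, arrays left out, the authors' table and a hepatocyte covariate; the covariate combined with left-out arrays or with the 9 arrays alone was chosen after seeing the data.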

Additional observations from a re-analysis of the deposited data

Results flagged for a closer look

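Within 4 or 5 mice of a dose, a value was marked where its gap to the nearest other array was large beside the whole range of the group (Dixon's criterion), and chance marks about 1 in 20 groups; 18 of 262 were marked.

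At 8.8 Gy, replicate 1 stood apart in liver RNA, with a hepatocyte score of -0.63 (others 6.09 to 7.13) and an Alb level of -2.23 (7.37 to 8.47). Replicate 2 was low in Dapl1 at -3.62 (-2.57 to -2.47), replicate 3 in Bcar3 at -0.28 (0.37 to 0.50) and replicate 4 in Eef1a1 at 5.48 (6.58 to 6.79).

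At 6 Gy, replicate 5 was high in the liver genes Cyp2e1 at 6.76 (others 1.24 to 2.47) and Apoa2 at 9.91 (3.52 to 5.34). It was low in Eif4g2 at 0.47 (1.16 to 1.39), Mdm2 at 3.49 (3.88 to 4.02), Casd1 at -2.41 (-1.16 to -0.86) and the DNA replication score at -0.0012 (0.41 to 0.56). Replicate 1 was high in the heart muscle score at 2.88 (-1.02 to 0.02) and in Ly6g at -0.0517 (-1.07 to -0.88). Replicate 2 was high in Cd4 at 5.13 (4.19 to 4.35) and Paqr9 at 2.66 (1.92 to 2.13), and low in R3hdm2 at 0.80 (1.24 to 1.35). Replicate 4 was high in Eef2 at 5.57 (5.16 to 5.26) and low in Nthl1 at -1.90 (-1.23 to -1.13).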

How the results depend on the processing

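The counts of genes called by limma at 8.8 Gy over 6 Gy were 0 higher and 0 lower with all arrays. They were 374 and 1748 after normexp, 120 and 128 after quantile normalisation, 2003 and 59 after median centring, 7 and 40 with the 75th percentile of detected probes, 0 and 4 with no filter on dim probes, and 145 and 23 in the authors' deposited table. Slide as a fixed block gave 9 and 3, as a random block 40 and 36, the hepatocyte covariate 575 and 184, and that covariate with the 9 arrays alone 556 and 116. Leaving out 1 array gave 0 to 679 higher and 0 to 280 lower, the larger counts with the covariate; without it the ranges were 0 to 6 and 0 to 9. The cause of these shifts was not tested. The replicate block left 0 and 0 called. At an unadjusted p under 0.05 it gave 717 genes higher (4.96%) and 2193 lower (15.2%). Of these, 15 of 78 ribosomal and 16 of 34 T cell genes were lower, and 6 of 37 platelet and 9 of 46 erythroid genes higher. The ribosomal share was thus close to that of all genes. Same-numbered samples did not deviate together (correlations 0.03, 0.39, -0.57 and 0.06), so the numbers do not pair them.

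Signs turned after normexp for Alas2 (-0.85), Ccng1 (-0.55), Cd4 (-0.56), Cd8a (0.38), Chek1 (0.29), Eef2 (-0.58), F13a1 (-0.0041), H2-Ob (0.28), Ly6g (0.10), Mdm2 (-0.69), Nthl1 (0.27), Oasl2 (-0.42), Parp3 (0.31), Phlda3 (-0.70), Pou2af1 (0.0627), Pou2f2 (0.0606), Prdx6 (-0.30), Rplp0 (-0.87), Rplp1 (-0.87), Rplp2 (-0.82), Sdha (-0.16), Skint10 (0.32), Tpx2 (0.0518), Trp53inp1 (-0.26) and Zfp563 (0.0480). They turned after median centring for Cd74 (0.0264), Cdkn1a (0.22), Eef1a1 (0.0272), H2-Aa (0.0935), Ly6g (0.17) and Pf4 (0.47), and after quantile normalisation for Rplp0 (-0.0269). Pf4 was 0.0878 in the authors' table, 0.13 and 0.0389 with slide as a fixed and a random block, 0.25 with the covariate, 0.55 with it and the 9 arrays alone, 0.41 without 8.8 Gy replicates 2 and 4, and 0.50 so with the covariate. Alb was -0.14 with the covariate and -0.0667 with it and without those replicates, and Oasl2 -0.0268 with it and -0.37 with it and the 9 arrays alone. Leaving out 1 array gave -0.10 to 0.44 for Alas2, -0.0829 to 0.38 for Rplp0, -0.0938 to 0.52 for Rplp1, -0.11 to 0.56 for Rplp2, -0.48 to 0.59 for Oasl2, -0.40 to 0.61 for Pf4 and -0.57 to 6.28 for Alb. It gave -2.54 to 2.02 percentage points for the share of probes above background and -0.34 to 0.0479 for the 75th percentile. Signal near background limits Parp3, Dapl1, Cd8a, Tpx2, Skint10, Zfp563 and Yod1. Yod1 passed the detection filter only through 8.8 Gy, as did Apaf1, and the others of this list only through 6 Gy.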
